A study of Mus musculus with 48 samples.

Results

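The genes described here take part in calcium and phosphate absorption across the intestinal wall or in the response to vitamin D. They were chosen by symbol (S100g, Trpv6, Vdr, Atp2b1, Cyp24a1 and Slc34a2) from the tables of the duodenum, jejunum and ileum, with 1 row kept for each Ensembl ID. Of the 6 genes, 3 had values, namely Vdr, Atp2b1 and Slc34a2, and each of them was present in all 3 tables. S100g, Trpv6 and Cyp24a1 were not analysed here. The 3 genes stand among 11225 genes listed in at least 1 of the intestinal tables.

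The study gave male C57Bl6 mice with diet-induced obesity, raised on a high fat diet, either Roux-en-Y gastric bypass (RYGB), in which food passes from a small gastric pouch into the jejunum and bypasses the duodenum, or sham surgery. After surgery both groups received a liquid elemental diet for 9 days, and the protocol then names a return to the high fat diet. The mice were killed 9 days after surgery, in the morning after a fast. Villi, the finger-like folds of the lining that absorb nutrients, were scraped off in cold EDTA, and mRNA was sequenced. The duodenum had 3 RYGB and 4 sham libraries, the jejunum 3 RYGB and 4 sham, and the ileum 5 RYGB and 5 sham, which makes 24 of the 48 libraries of the series. The labels do not say which limb of the bypass the RYGB jejunum came from, whether sham mice were matched for weight or food, or whether the segments came from the same mice.

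Calcium crosses the intestinal epithelium either between cells, through tight junctions, or through the cells. On the cellular route it enters at the brush border through the channel Trpv6, is carried through the cytosol by the calcium-binding protein S100g and is pumped out at the basolateral side by the calcium ATPase Atp2b1. The hormone form of vitamin D binds the nuclear receptor Vdr, which acts with a retinoid X receptor to raise transcription of these genes and of Cyp24a1, the enzyme that inactivates the hormone. Slc34a2 is the sodium-dependent phosphate cotransporter of the brush border, known in the mouse for its high level in the ileum. The duodenum is known as the main site of the vitamin D-dependent cellular route.

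In the genome build GRCm38 with the GENCODE M21 annotation, Slc34a2 (ENSMUSG00000029188) lies on the plus strand of chromosome 5 from 53038081 to 53071664. Atp2b1 (ENSMUSG00000019943) lies on the plus strand of chromosome 10 from 98914406 to 99026143, and Vdr (ENSMUSG00000022479) on the minus strand of chromosome 15 from 97854425 to 97910630. RefSeq start sites with their upstream sequence (GRCm38.p6) were matched for 3 of the 3 genes with values, in 4 windows. The upstream bases of Slc34a2 and of Atp2b1 are shown because these were the genes whose levels ran in opposite directions along the intestine. The stretch of Slc34a2 is chr5:53049103-53049351 on the plus strand, 249 bases that end just before an exon at the RefSeq start site and lie inside the longer GENCODE gene, in an intron of it. An exon of the gene Gm17182 overlaps it. The stretch of Atp2b1 is chr10:98914902-98915151 on the plus strand, the 250 bases before the more downstream of its 2 RefSeq start sites, also in an intron of the longer gene. Capitals mark matches on either strand to TATATA, to the GC box GGGCGG or to the nuclear receptor half-site AGGTCA.
Slc34a2: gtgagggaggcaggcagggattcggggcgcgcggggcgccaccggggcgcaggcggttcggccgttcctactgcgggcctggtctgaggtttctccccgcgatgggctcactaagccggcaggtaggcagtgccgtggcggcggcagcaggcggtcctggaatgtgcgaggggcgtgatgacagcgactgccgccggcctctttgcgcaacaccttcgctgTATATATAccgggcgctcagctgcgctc
Atp2b1: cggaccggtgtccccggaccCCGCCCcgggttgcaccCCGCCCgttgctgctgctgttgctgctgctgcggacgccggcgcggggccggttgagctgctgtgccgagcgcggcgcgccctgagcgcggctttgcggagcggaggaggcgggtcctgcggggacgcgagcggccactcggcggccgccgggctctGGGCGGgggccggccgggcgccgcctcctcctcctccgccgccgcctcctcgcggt
The Slc34a2 stretch held 2 overlapping copies of TATATA, which begin 29 and 27 bases before the start site. The Atp2b1 stretch held GGGCGG 3 times, with 1 match on the plus strand and 2 on the minus strand, printed as its reverse complement. The half-site was in neither stretch. Of 32851 windows of 250 bases upstream of RefSeq start sites, 5.25% held TATATA, 32.7% held the GC box and 14.0% held the half-site. GC content was 69.5% in the stretch of Slc34a2 and 80.8% in that of Atp2b1, against a median of 52.4% over all windows. No binding was measured in these samples.

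Expression is given as deposited, in CPM, in which the counts of a gene are scaled to the same total in every library. RYGB was compared with sham within each segment on log2(CPM + 1) with limma, and a gene was called when its Benjamini-Hochberg adjusted p was under 0.05 and its fold change at least 1.5. The log2 fold changes are RYGB minus sham on this scale, which understates the change of genes with low values. Segments were not tested against each other, because their tables were normalized separately, and values from different segments are only set side by side. In scraped villi, fewer cells of a type and less RNA per cell cannot be told apart.

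Some libraries stood apart in the markers of position along the gut. In the duodenum Slc40a1, the iron exporter of the proximal intestine, was at 25.2 CPM in RYGB 1 and 26.9 CPM in sham 4, at 349.7 to 855.9 CPM in 4 libraries and at 2468.1 CPM in sham 1. Pdx1, a transcription factor of the proximal gut, was lowest in the same libraries (14.5 CPM in sham 4 and 16.9 CPM in RYGB 1) and highest in sham 1 (159.9 CPM). Not every marker listed as proximal followed this order. Lct, which encodes lactase, was lowest in sham 1 (149.4 CPM) and highest in sham 4 (4681.5 CPM). Its sham medians were 1697 CPM in the duodenum, 4263 CPM in the jejunum and 4983 CPM in the ileum. Lct was therefore not highest in the proximal segment here. Onecut2 was at 185.7 CPM in RYGB 1, the highest of its group, and at 130.0 CPM in sham 4. In the jejunum sham 2 stood apart, with Slc40a1 at 21.1 CPM and Pdx1 at 7.4 CPM against 1.6 to 3.7 CPM and 0.5 to 1.1 CPM in the other sham libraries. Onecut2 was also highest of the sham libraries in sham 2 (138.0 CPM). Lct was lowest there (3254.7 CPM against 3436.3 to 5394.5 CPM in the other sham libraries). In RYGB 1 to 3 of the jejunum, Slc40a1 was at 0.7, 5.3 and 7.1 CPM and Pdx1 at 1.5, 3.4 and 4.1 CPM. Onecut2 was at 45.0, 88.9 and 108.1 CPM in the same libraries. By these markers RYGB 2 and 3 lay above every jejunal sham library but sham 2. The ileal bile acid genes Fabp6 and Fgf15 were listed in the ileum only, but Fabp6 was at 0 in ileum sham 1 and sham 5, at 0.1 CPM in RYGB 4 and between 2.5 and 50.5 CPM in the other 7 libraries. All 10 villus epithelium markers had values in each segment, and none of the 6 smooth muscle or 7 pancreatic acinar markers was listed in any. T cell markers, of which 4 or 5 of 6 were listed, summed to 19.5 to 28.8 CPM in the jejunum of the RYGB group and 82.4 to 219.0 CPM in that of the sham group, and to 6.8 to 32.9 CPM and 44.0 to 141.3 CPM in the ileum. In the duodenum they summed to 79.0 to 221.1 CPM in the RYGB group and 34.9 to 116.8 CPM in the sham group.

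The median levels of the 3 genes were not the same along the intestine. Slc34a2 was lowest in the duodenum (median 8.9 CPM over 7 libraries), higher in the jejunum (411.2 CPM over 7) and highest in the ileum (945.4 CPM over 10). Atp2b1 ran the other way, with medians of 202.3, 135.1 and 108.3 CPM. Vdr was highest in the duodenum (655.9 CPM), lowest in the jejunum (351.1 CPM) and between them in the ileum (433.4 CPM). No duodenal library reached the lowest Slc34a2 value of the jejunum, whereas the values of the jejunum and ileum overlapped. For each gene, groups ordered by their medians overlapped with the next group in the order, except Slc34a2 between the RYGB jejunum, with a lowest value of 201.1 CPM, and the sham duodenum, with a highest of 26.0 CPM.

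**Figure D1:**
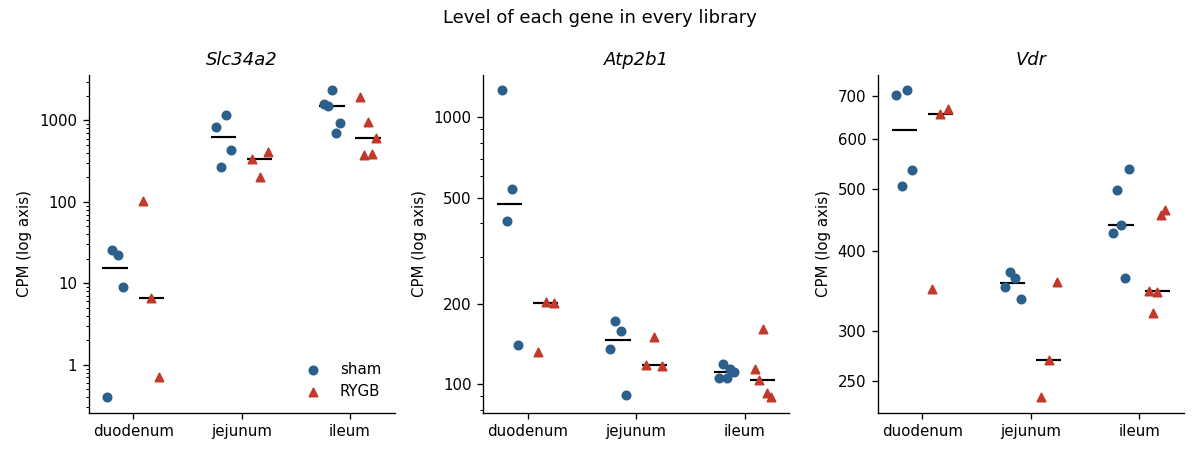
CPM of Slc34a2, Atp2b1 and Vdr (y axes, log scale, a different range in each panel) in every library of the duodenum, jejunum and ileum (x axis). Circles are sham and triangles RYGB libraries, and bars are group medians. Slc34a2 lies between 0.4 and 103.8 CPM in the duodenum and above 200 CPM in the other segments, and Atp2b1 is highest in duodenum sham 1, at 1263.0 CPM.

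To compare genes with each other, CPM was divided by the length of the exons of each gene in GENCODE M21, which is 5.65 kb for Vdr, 15.2 kb for Atp2b1 and 5.01 kb for Slc34a2. In the sham group the median level per kb in the duodenum was 110.0 CPM per kb for Vdr, 31.0 for Atp2b1 and 3.12 for Slc34a2. In the sham ileum this order was changed, with 301.0 CPM per kb for Slc34a2, 77.8 for Vdr and 7.29 for Atp2b1. In the sham jejunum the levels per kb were 126.0 for Slc34a2, 63.2 for Vdr and 9.65 for Atp2b1. By median level per kb the receptor was the most abundant of the 3 transcripts in the duodenum, and the phosphate cotransporter in the jejunum and ileum, in the RYGB group as well as in the sham group.

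RYGB was compared with sham to see whether these genes differ at day 9, when food no longer passes the duodenum. None of the 3 genes was called in any segment, and for none did all RYGB libraries lie on 1 side of all sham libraries, as they did for 15.6% of all genes in the duodenum, 22.2% in the jejunum and 9.34% in the ileum. Over all genes, 0.00922% were called in the duodenum (1 of 10850 tested), 9.75% in the jejunum (1058 of 10854) and 6.05% in the ileum (650 of 10735). At an unadjusted p under 0.05, limma likewise found 0 of the 3 genes in each segment, against 18.8%, 24.6% and 26.5% of all genes. The median log2 fold change of the 3 genes was -0.18 in the duodenum, -0.32 in the jejunum and -0.24 in the ileum, beside medians of 0.12, -0.04 and -0.09 over all genes tested.

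Vdr, the receptor, had from 236.0 to 715.5 CPM over the 24 libraries. In the duodenum it was at 349.0, 655.9 and 668.5 CPM in RYGB 1 to 3 and at 702.0, 505.6, 715.5 and 536.2 CPM in sham 1 to 4. RYGB 1 was the lowest of these, and the other RYGB libraries lay within the range of the sham group. The log2 fold change was -0.18 (standard error 0.27, adjusted p = 0.747 in limma), and without RYGB 1 it was 0.12.

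In the jejunum Vdr was at 236.0, 270.2 and 358.4 CPM in the RYGB libraries and at 351.1, 371.2, 362.9 and 336.8 CPM in the sham libraries. The sham values were close together, and RYGB 1 and 2 lay below all of them. RYGB minus sham was -0.32 on the log2 scale (standard error 0.18, 95% interval -0.72 to 0.07, adjusted p = 0.300 in limma). In the ileum Vdr was at 346.7, 319.7, 345.3, 455.0 and 463.8 CPM in RYGB 1 to 5 and at 426.9, 499.7, 439.8, 363.0 and 537.9 CPM in sham 1 to 5. There 3 of 5 RYGB libraries lay below every sham library and the other two inside the sham range. The difference in the ileum was -0.24 (standard error 0.14, 95% interval -0.55 to 0.08, adjusted p = 0.317 in limma). These intervals correspond to folds of RYGB over sham between 0.608 and 1.05 in the jejunum and between 0.683 and 1.06 in the ileum.

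Atp2b1, the calcium pump of the basolateral membrane, varied most in the duodenum. It was at 131.6, 202.3 and 201.5 CPM in RYGB 1 to 3 and at 1263.0, 407.7, 537.3 and 140.2 CPM in sham 1 to 4. Of the sham libraries, 3 were above every RYGB library, and sham 4 was below RYGB 2 and 3. Mean CPM was 178.5 ± 40.6 (SD, n = 3) after RYGB and 587.0 ± 480.0 (SD, n = 4) after sham surgery. RYGB minus sham was -1.34 on the log2 scale (standard error 0.62, 95% interval -2.76 to 0.08), and it did not pass the threshold (adjusted p = 0.286 in limma).

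The order of the duodenal libraries by Atp2b1 was nearly that by the position marker Slc40a1. Both genes were highest in sham 1, followed by sham 3 and sham 2, then by RYGB 2 and 3, sham 4 and RYGB 1, and the orders differed only in the places of RYGB 2 and 3, which had nearly equal Atp2b1. Slc40a1 itself was at 409.2 CPM in RYGB 3 and 349.7 CPM in RYGB 2, below sham 2 (577.7 CPM) and sham 3 (855.9 CPM). By Pdx1 the order was not the same, with RYGB 3 (75.0 CPM) above sham 2 (65.8 CPM) and sham 3 (47.3 CPM). The part of position along the duodenum in the Atp2b1 difference was not tested. Without sham 4, the sham library with the lowest values of both markers, Atp2b1 was called as lower in the RYGB group (log2 fold change -1.89, adjusted p = 0.0365 in limma), where 757 genes in all were called. With RYGB 2 and 3 set against sham 2 and 3 alone, a choice made after seeing these values, it was -1.21 (adjusted p = 0.0489 in limma). Without sham 1 it was -0.84 and was not called.

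**Figure D2:**
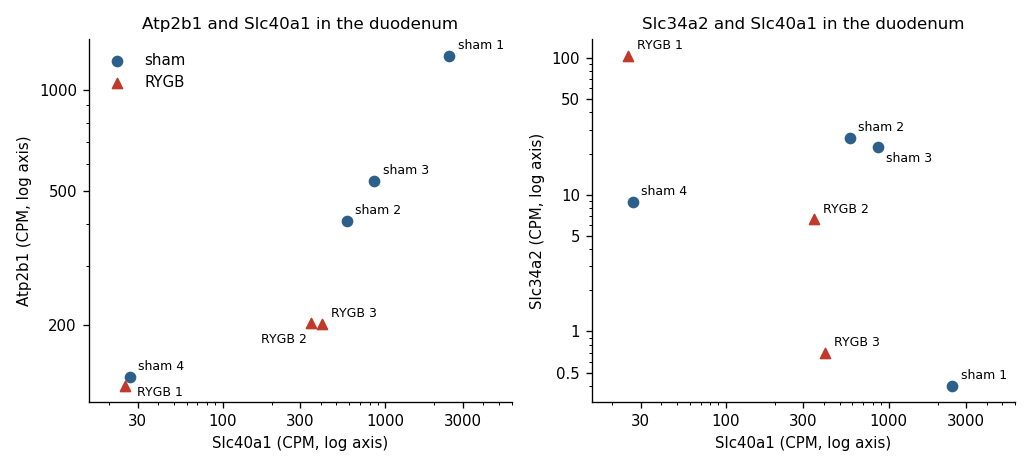
CPM of Atp2b1 (left y axis) and Slc34a2 (right y axis) against CPM of Slc40a1 (x axes) in the 7 duodenal libraries, all axes on a log scale. Circles are sham and triangles RYGB libraries, each labelled with its number. Atp2b1 is highest where Slc40a1 is highest (sham 1, 1263.0 and 2468.1 CPM) and lowest in RYGB 1 and sham 4, whereas Slc34a2 is highest in RYGB 1 (103.8 CPM). In sham 4 Slc34a2 is at 8.9 CPM.

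Outside the duodenum Atp2b1 differed little between the groups. In the jejunum it was at 118.4, 149.8 and 117.0 CPM in the RYGB libraries and at 135.1, 172.3, 158.5 and 90.8 CPM in the sham libraries. All RYGB values lay inside the sham range, and the log2 fold change was -0.08 (standard error 0.23, 95% interval -0.60 to 0.43, adjusted p = 0.867 in limma). In the ileum the RYGB libraries were at 114.1, 104.1, 160.8, 92.5 and 89.4 CPM and the sham libraries at 105.4, 119.1, 105.7, 114.3 and 111.0 CPM. The sham values spanned 13.7 CPM, and RYGB 3 lay above and RYGB 2, 4 and 5 below all of them. Here the log2 fold change was -0.02 (standard error 0.15, 95% interval -0.34 to 0.30, adjusted p = 0.949 in limma), and its sign reversed after scaling the libraries by their median ratio (0.088). The interval corresponds to folds between 0.792 and 1.23.

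Slc34a2, the phosphate cotransporter, was under 1 CPM in 2 of the 7 duodenal libraries. It was at 103.8, 6.6 and 0.7 CPM in RYGB 1 to 3 and at 0.4, 26.0, 22.4 and 8.9 CPM in sham 1 to 4. RYGB 1, a library with low Slc40a1 and Pdx1, was 4.0 times as high as the next library, and sham 1, with the highest Slc40a1 and Pdx1, was the lowest. Sham 4, also low in Slc40a1 and Pdx1, was below sham 2 and 3. The log2 fold change of 0.19 had a standard error of 1.44 (adjusted p = 0.958 in limma), and its sign turned when RYGB 1 (-1.43) or sham 1 (-0.74) was left out. In the duodenum a difference in Slc34a2 was therefore smaller than the spread among the libraries of each group.

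In the jejunum Slc34a2 was at 334.0, 201.1 and 411.2 CPM in the RYGB libraries and at 830.2, 266.9, 1166.7 and 430.8 CPM in the sham libraries. Of the sham libraries, 3 were above every RYGB library, and sham 2, the library with the highest Slc40a1 and Pdx1 of the jejunum, was below RYGB 1 and 3. The means were 315.4 ± 106.3 CPM (SD, n = 3) and 673.7 ± 405.0 CPM (SD, n = 4). On the log2 scale RYGB minus sham was -0.93 (standard error 0.46, 95% interval -1.96 to 0.09, adjusted p = 0.246 in limma). RYGB 2 was the only jejunal library sequenced in lane 2, and within lane 1 alone the log2 fold change was -0.64 (adjusted p = 0.577). Without sham 2 it was -1.30 (adjusted p = 0.0635).

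In the ileum Slc34a2 was at 1920.1, 372.0, 953.7, 387.5 and 615.9 CPM in RYGB 1 to 5 and at 1614.4, 1511.4, 2358.4, 705.8 and 937.0 CPM in sham 1 to 5. RYGB 2, 4 and 5 lay below all sham libraries, while RYGB 1 was higher than 4 of the 5. Mean CPM was 849.8 ± 642.9 (SD, n = 5) after RYGB and 1425.0 ± 646.1 (SD, n = 5) after sham surgery. The log2 fold change was -0.91 (standard error 0.45, 95% interval -1.88 to 0.06, adjusted p = 0.216 in limma), which corresponds to a 1.88-fold higher level in the sham group. Over all alternatives in the ileum the adjusted p lay between 0.0665 and 0.406. All RYGB ileum libraries were sequenced in lane 1 and all sham ileum libraries in lanes 2 and 3, and the effect of lane and that of surgery cannot be told apart in this segment.

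**Figure D3:**
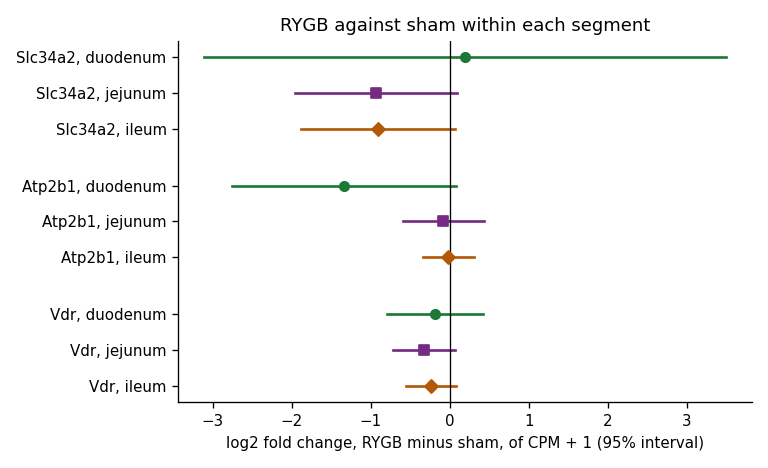
Log2 fold change, RYGB minus sham, of CPM + 1 (x axis) for Slc34a2, Atp2b1 and Vdr in each segment (y axis). Points are limma estimates, with circles for the duodenum, squares for the jejunum and diamonds for the ileum, and lines are 95% intervals without adjustment for the number of genes. All 9 intervals include 0, and the widest is that of Slc34a2 in the duodenum, from -3.10 to 3.49.

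The genes whose levels over the 24 intestinal libraries were most like those of each gene were found among 7100 genes listed in all 3 tables with a mean of at least 10 CPM. Likeness is Pearson's r of log2(CPM + 1), given as a description, since libraries of a segment share a table and much of each r reflects the segments. For Atp2b1 the leading genes were Ncoa4 (r = 0.926), a receptor for the autophagy of ferritin, Slc30a10 (0.893), a manganese exporter, and Ireb2 (0.877), an iron-regulatory RNA-binding protein. Median levels of Ncoa4 were 22.2 CPM in the duodenum, 5.9 CPM in the jejunum and 5.65 CPM in the ileum. For Slc34a2 they were Enpp7 (0.935), the alkaline sphingomyelinase of the gut, Nts (0.919), the hormone precursor of neurotensin, and Mtmr11 (0.902). Enpp7 rose along the intestine from a median of 60.9 CPM in the duodenum to 625.9 CPM in the jejunum and 2553 CPM in the ileum. For Vdr they were Hinfp (0.847), R3hdm1 (0.831) and Hsd3b7 (0.821), a bile acid synthesis enzyme. Among the genes themselves, r was 0.578 between Vdr and Atp2b1, -0.72 between Atp2b1 and Slc34a2, and -0.634 between Vdr and Slc34a2.

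Of 47 further genes of calcium, tight junctions, vitamin D, phosphate and magnesium, 34 were tested in each segment. In the duodenum none of the 34 was called by limma, with 6 at an unadjusted p under 0.05, beside 18.8% of all genes. In the jejunum 7 were called, which is 20.6% of those tested beside 9.75% of all genes, with 3 higher and 4 lower in the RYGB group, where 4.62% of all genes were higher and 5.13% lower. In the ileum 5 were called, 14.7% beside 6.05% of all genes, with 2 higher and 3 lower, beside 1.64% and 4.42% of all genes. After scaling by the median ratio the ileal balance turned, with 4 higher (Anxa2, Calm2, Pdia3 and Slc20a1) and 2 lower (Cubn and Cyp27a1). Their median log2 fold changes were 0.08, -0.04 and -0.13 in the duodenum, jejunum and ileum. The jejunal count was 2 without RYGB 2, with Calm2 and Cubn called, and 4 without sham 4. Calls over all jejunal genes fell as well, from 1058 to 462 without RYGB 2 and to 730 without sham 4. RYGB 2 is the only library of its lane, so a fit with lane as a covariate is the comparison without RYGB 2 and gave the same 2 genes. The ileal count was 2 or 3 when RYGB 2, RYGB 3 or any single sham library was left out.

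**Figure D4:**
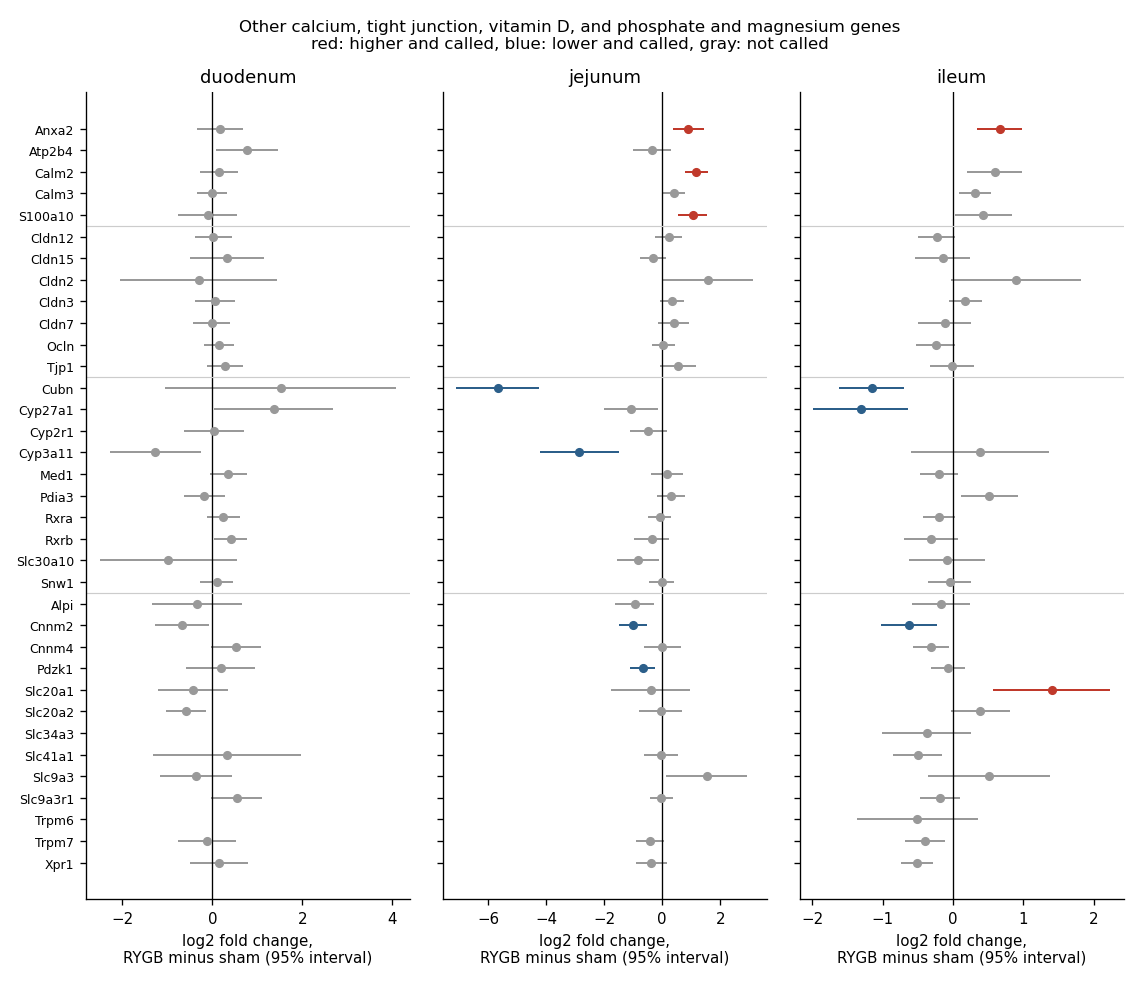
Log2 fold change, RYGB minus sham, with 95% intervals (x axes, a different range in each panel) of the further calcium, tight junction, vitamin D, and phosphate and magnesium genes (y axis, in this order from the top, divided by gray lines) in the duodenum, jejunum and ileum. Red marks genes called as higher, blue those called as lower and gray those not called. No gene is called in the duodenum, 7 are called in the jejunum and 5 in the ileum, and Cubn in the jejunum has the most negative value (-5.69).

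Of 12 further genes of the cellular calcium route, 6 were tested in the duodenum and jejunum and 5 in the ileum, and those called were not pumps or channels. In the jejunum 3 of 6 rose, beside 4.62% of all genes called as higher, and in the ileum 1 of 5, beside 1.64%. Anxa2, an annexin that together with S100a10 is known to bring calcium channels to the cell surface, was at 2008.4, 1556.6 and 1234.0 CPM in the RYGB jejunum and at 714.3 to 1010.2 CPM in the sham jejunum. It rose by 0.90 on the log2 scale there (standard error 0.22, adjusted p = 0.0319 in limma, lost in 5 of 7 fits without 1 library) and by 0.67 in the ileum (standard error 0.14, adjusted p = 0.0176). In the ileum all RYGB libraries, from 1113.4 to 1742.7 CPM, were above all sham libraries, from 735.0 to 888.6 CPM.

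S100a10 was at 628.0, 518.2 and 388.2 CPM in the RYGB jejunum and at 263.8, 244.9, 186.2 and 286.1 CPM in the sham jejunum, so the groups did not overlap. It rose by 1.05 (standard error 0.22, adjusted p = 0.0159 in limma). In the ileum its log2 fold change was 0.43 (adjusted p = 0.152). Calm2, which encodes calmodulin, a calcium sensor that also activates the calcium pumps, rose by 1.18 in the jejunum (standard error 0.16, adjusted p = 0.00262 in limma), from 139.8 ± 17.8 CPM (SD, n = 4) with sham surgery to 316.0 ± 17.9 CPM (SD, n = 3) with RYGB. Its value is uncertain, because related genes have similar transcripts and the symbol in the tables differed from that of its Ensembl ID, which was used here. Atp2b4, another calcium pump, averaged at most 2.83 CPM in each group of the duodenum and jejunum and was not called.

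None of the 7 tight junction genes was called in any segment. Cldn2, which encodes a pore-forming claudin that lets calcium pass between cells, had the largest difference of them in the jejunum, with 2.9, 4.0 and 30.4 CPM as the lowest, median and highest RYGB values and 0.4 to 4.8 CPM in the sham group. Its log2 fold change was 1.56 (standard error 0.69, adjusted p = 0.197 in limma). Cldn15, a sodium channel-forming claudin, averaged from 552.3 to 836.8 CPM over the groups, and its log2 fold changes were 0.32, -0.31 and -0.15 in the duodenum, jejunum and ileum, none of them called.

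Of the vitamin D pathway genes 2 of 10 fell in the jejunum and 2 of 9 in the ileum. Over all genes, 5.13% and 4.42% were called as lower there. Cubn encodes cubilin, an endocytic receptor that takes up intrinsic factor with cobalamin and, in the kidney, vitamin D-binding protein. In the jejunum it was at 37.8, 5.0 and 5.1 CPM in the RYGB libraries and at 893.3, 342.2, 863.7 and 421.8 CPM in the sham libraries, with no overlap (log2 fold change -5.69, adjusted p = 0.00101 in limma). In the ileum Cubn was at 353.8 to 630.8 CPM in the RYGB group and 806.4 to 1686.9 CPM in the sham group, a fall by 1.16 on the log2 scale (standard error 0.21, adjusted p = 0.0106 in limma). In the duodenum its sham libraries ranged from 6.1 CPM in sham 1 to 366.8 CPM in sham 4, and its log2 fold change was 1.52 (standard error 1.11, adjusted p = 0.489).

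Cyp3a11, a cytochrome P450 of drug and bile acid metabolism that vitamin D is known to induce, was at 571.7, 84.8 and 110.8 CPM in the RYGB jejunum and at 993.5, 2099.8, 766.3 and 1700.0 CPM in the sham jejunum. RYGB 1 was the highest of its group, still below every sham library, and the log2 fold change was -2.86 (standard error 0.60, adjusted p = 0.017 in limma, lost in 3 of 7 fits without 1 library). In the ileum the groups overlapped and Cyp3a11 was not called (0.39, adjusted p = 0.614). Cyp27a1, a mitochondrial sterol hydroxylase that also acts on vitamin D, fell by 1.31 in the ileum (standard error 0.30, adjusted p = 0.025 in limma), from 90.2 ± 39.6 CPM (SD, n = 5) to 34.3 ± 11.2 CPM (SD, n = 5), a call lost in 4 of 10 fits without 1 library. In the duodenum Cyp27a1 had the opposite sign (1.36, adjusted p = 0.249), with 58.2, 92.2 and 127.1 CPM in the RYGB libraries, 20.4 to 26.1 CPM in sham 1 to 3 and 110.6 CPM in sham 4, and it was called as higher there without sham 4. The retinoid X receptors Rxra and Rxrb, partners of Vdr, were not called in any segment, and Rxra averaged from 156.8 to 213.5 CPM over all groups. Slc30a10 had a log2 fold change of -0.83 in the jejunum, where all RYGB libraries (37.7 to 83.2 CPM) lay just below all sham libraries (83.3 to 170.1 CPM), and it was not called (adjusted p = 0.130).

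Of the phosphate and magnesium genes 2 of 11 fell in the jejunum, and in the ileum 1 of 13 rose and 1 fell. Over all genes, 5.13% were called as lower in the jejunum, and 1.64% as higher and 4.42% as lower in the ileum. Cnnm2, a membrane protein of magnesium transport, was called as lower in both segments. It was at 13.8, 14.0 and 16.1 CPM in the RYGB jejunum and at 24.8 to 37.6 CPM in the sham jejunum (log2 fold change -1.01, standard error 0.21, adjusted p = 0.0149 in limma), and at 10.3 to 17.5 CPM and 17.8 to 27.8 CPM in the ileum (-0.62, standard error 0.17, adjusted p = 0.0477). The ileal call was lost in 8 of 10 fits without 1 library (kept without RYGB 4 or sham 4), after scaling by the median ratio and under the replicate block. Pdzk1, a scaffold protein that holds transporters at the brush border, was at 544.9, 377.9 and 422.6 CPM in the RYGB jejunum and at 665.0 to 759.3 CPM in the sham jejunum (-0.67, standard error 0.18, adjusted p = 0.0398 in limma), a call lost in 6 of 7 fits without 1 library.

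Slc20a1, a phosphate cotransporter of a family other than that of Slc34a2, was higher in the ileum of the RYGB group, with 33.0, 166.5, 60.6, 59.1 and 37.5 CPM against 17.4, 21.8, 15.9, 23.0 and 35.9 CPM in the sham group. RYGB 1 was below sham 5 and the other RYGB libraries were above every sham library, and the log2 fold change was 1.40 (standard error 0.38, adjusted p = 0.0425 in limma), a call lost in 7 of 10 fits without 1 library. Xpr1, the phosphate exporter, had an adjusted p of 0.0131 in limma in the ileum but a fold of 1.42 in favor of the sham group, below the required size, with 91.9 to 112.9 CPM in the RYGB libraries and 133.1 to 165.9 CPM in the sham libraries. Alpi, the intestinal alkaline phosphatase of the brush border, was at 764.9 to 1640.6 CPM in the RYGB jejunum and 1762.4 to 3038.8 CPM in the sham jejunum, without overlap, and was not called (log2 fold change -0.94, adjusted p = 0.0675).

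The calls in the jejunum and ileum stood beside differences in other markers. Over all genes, 4.62% were called as higher and 5.13% as lower in the jejunum, and 1.64% and 4.42% in the ileum. The T cell markers with values were all called as lower in the RYGB group, 5 in the jejunum and 4 in the ileum. Of the 10 villus epithelium markers, 3 were called as higher in the jejunum and none in the ileum. In the jejunum 6 of the 10 were higher in every RYGB than in every sham library. Groups did not overlap for 22.2% of all jejunal genes. Fabp2 (-1.08), with the highest sham mean of the 10, and Cdx1 (-0.08) had the opposite sign. The sum of the 10 was 16970 to 24990 CPM in the RYGB jejunum and 16500 to 20750 CPM in the sham jejunum. Of the 5 markers listed as proximal and tested in the jejunum, only Lct was called, as lower (-1.46). Gata4 (0.38) and Pdx1 (0.56) had the opposite sign there, and Slc40a1 (-0.335) and Onecut2 (-0.054) the same. Of the 4 tested in the ileum, Lct (-0.68) and Onecut2 (-1.91) were called as lower. Gata4 (-0.079) and Slc40a1 (-0.45) were not called there. Of the 4 distal markers in the ileum, 1 was called, the bile acid transporter Slc10a2, as higher in the RYGB group (2.30). It was at 1.6 to 53.7 CPM in the RYGB group against 0.2 to 2.5 CPM in the sham group. Fabp6 (2.35), Fgf15 (1.45) and Pyy (0.39) had the same sign as Slc10a2 and were not called. Of the 6 goblet cell markers 2 were called as higher in the RYGB group in both segments, Clca1 (0.77 in the jejunum and 0.83 in the ileum) and Spink4 (1.42 and 0.75), and all 6 together summed to 4446 to 7367 CPM in the RYGB jejunum and 4152 to 6351 CPM in the sham jejunum, and to 6189 to 7384 CPM and 4641 to 7287 CPM in the ileum. In the duodenum no cell or position marker was called. Of 5 crypt and cycling cell markers there, Mki67 (1.67), Olfm4 (2.345) and Top2a (1.64) were higher in every RYGB than in every sham library. Pcna (-0.36) and Sox9 (-0.345) had the opposite sign. The macrophage marker Csf1r (1.70) and the plasma cell marker Jchain (1.68) also did not overlap, while C1qa (1.37) and Lyz2 (1.105) did. Groups did not overlap for 15.6% of all duodenal genes. The part of cell makeup and of position along the gut in the differences of the genes above was not tested.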

How the data were processed

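Villus RNA of the duodenum, jejunum and ileum (24 libraries) was used, with groups from the labels. Liver, fat and muscle tables were not used. The labels give a stranded mRNA kit, HTSeq and GRCm38. The aligner and annotation are not given in the sources used here. The authors deposited 1 table per segment of CPM, counts scaled to a library total, rounded to 0.1, a unit inferred from the values. After repeated lines (298, 359 and 326) were dropped, columns summed to between 925122 and 998669. Each listed gene had 1 CPM or more in 3 libraries of the duodenum or jejunum, or 5 of the ileum, at the fewest. Depth is unknown, so no counting interval was given.

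RYGB was compared with sham in each segment with limma 3.58.1 (R 4.3.3, empirical Bayes with a trend) on log2(CPM + 1), after genes whose mean was under 1 CPM were removed. Benjamini-Hochberg adjustment covered every gene tested in the segment. Fits were tested on simulated data. The labels do not state that each library is a separate mouse, and p values then measure only the spread between these samples, which may be technical. Gene names follow the Ensembl ID. In the calcium list 1 tested gene is counted but not reported or plotted here. Tables were prepared with Python 3.11.15 and pandas 2.3.3. The genes and lists were chosen with earlier results of these data known. Named are all member genes, every called gene of the lists with up to 4 others a list, and the 3 genes most like each member. Slc40a1, Pdx1, Lct and other markers were named after their values were seen.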

Additional observations from a re-analysis of the deposited data

Results flagged for a closer look

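In groups of 4 or 5 libraries, 3 values of 48 groups examined, over 12 genes, lay far from the rest of their group, where chance gives about 1 in 20 groups (2.4). None was a value of Vdr, Atp2b1 or Slc34a2. Anxa2 was at 1742.7 CPM in RYGB 3 of the ileum and at most 1229.9 CPM in the other RYGB libraries, a gap of 0.778 of the range on the log2 scale. Cyp27a1 was at 110.6 CPM in sham 4 of the duodenum and at most 26.1 CPM in the other sham libraries (0.857 of the range). Slc20a1 was at 121.4 CPM in sham 2 of the duodenum and at most 54.1 CPM in the other sham libraries (0.86 of the range).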

How the results depend on the processing

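Leaving out 1 library gave 0 to 1 called genes among Vdr, Atp2b1 and Slc34a2 in the duodenum and 0 in the jejunum and ileum. Among the further genes it gave 0 to 2 in the duodenum, 2 to 7 in the jejunum and 2 to 6 in the ileum. The log2 fold change then ranged in the duodenum from -0.34 to 0.12 for Vdr, -1.89 to -0.84 for Atp2b1 and -1.43 to 1.54 for Slc34a2. It ranged in the jejunum from -0.49 to -0.19, -0.28 to 0.031 and -1.30 to -0.60, and in the ileum from -0.31 to -0.17, -0.16 to 0.055 and -1.27 to -0.68, for the same genes in order.

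With RYGB 2 and 3 against sham 2 and 3 of the duodenum, chosen after seeing the data, 1 of the 3 genes and 3 further genes (Cubn, Cyp27a1 and Cyp3a11) were called, and Vdr (0.14) and Slc34a2 (-2.81, adjusted p = 0.0751) changed sign. The replicate block called 1 further gene in the duodenum and, in the jejunum, 1 of the 3 genes, Slc34a2 (-1.07, adjusted p = 0.0185 in limma). Deviations from the group means of RYGB and sham libraries of equal number had r from -0.28 to 0.28. Such values cannot show whether these libraries were paired. The block changed no other call among the 3 genes. Lane as a covariate, which there removes RYGB 2 alone, left 2 further genes in the jejunum. Scaling by the median ratio moved the median of all duodenal genes from 0.12 to 0.0033 (Atp2b1 then -1.47), turned Atp2b1 in the ileum (0.088) and moved the share of higher calls in the ileum from 27.1% to 46.9%.

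Genes called over the whole table numbered 1 in the duodenum, against 303 with the block, 757 without sham 4 and 197 in the comparison of 4 libraries. In the jejunum they numbered 1058, against 664 at a mean of at least 10 CPM, 469 with lane as a covariate and 462 without RYGB 2, and in the ileum 650, against 333 at a mean of at least 10 CPM and 312 without sham 3. Values under about 1 CPM are limited by the rounding to 0.1 CPM.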
